A study of Mus musculus with 7 samples.

Results

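The SLAM family of leukocyte receptors and the small SH2 adaptors around them were followed through single cell RNA libraries of mouse spleen T cells responding to the Armstrong strain of lymphocytic choriomeningitis virus (LCMV). The set held 9 of the 27998 genes in the deposited matrices and was taken by gene symbol. It comprised 7 receptor genes (Slamf1, Slamf6, Slamf7, Ly9, Cd48, Cd84 and Cd244) and 2 adaptor genes (Sh2d1a and Sh2d2a). All 9 had UMIs (unique molecular identifiers, each standing for 1 captured transcript) in all 7 libraries.

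C57bl/6 spleen cells of 6 kinds were sequenced after LCMV infection. The 2 total libraries held wild type CD44high T cells, activated cells of any specificity, at day 7. Per the labels, their CD4+ and CD8+ cells came from separate sorts and were mixed in equal parts before capture. The 5 GP66+ libraries held cells that bound the GP66:I-Ab tetramer, a viral glycoprotein peptide on an MHC class II molecule. Per the labels, wild type GP66+ cells were sorted as CD4+ and those of the other 4 libraries by the YFP reporter with no CD4 gate given, so differences between the wild type library and these 4 cannot be told apart from the sort. The 5 libraries were wild type at day 7, Ox40-Cre+ Thpokwt/wt RosaYFP+ (called Thpok-sufficient) at days 7 and 30, and Ox40-Cre+ Thpokfl/fl RosaYFP+ (called Thpok-deleted) at days 7 and 30. The Cre driver and the reporter were thus shared by the Thpok-sufficient and Thpok-deleted cells and absent from the wild type. Ox40 is switched on in T cells after activation, so that the deletion affects cells already committed to the CD4 lineage. Thpok, encoded by Zbtb7b, is the transcription factor that specifies the CD4 helper lineage. The wild type and Thpok-sufficient libraries are together called Thpok-intact. The number of animals behind a library is not stated in these sources, and p-values therefore reflect differences between libraries that could be partly technical.

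Most SLAM receptors bind their own kind on a neighbouring cell, while CD244 binds CD48. The tyrosine motifs of many, though not all, of these receptors recruit SAP, the product of Sh2d1a, which brings in the kinase Fyn. Without SAP the same motifs recruit inhibitory phosphatases. In helper T cells SAP is needed for stable contact with B cells in the germinal centre, and in CD8 and natural killer (NK) cells SLAM receptors tune killing. CD48 is a lipid-anchored member with no tyrosine motif. Sh2d2a encodes TSAd, an adaptor of Lck with an SH2 domain that is induced on T cell activation.

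After filtering, 724 to 6615 T cells per library remained, with a median of 2017 to 5900 UMIs per called cell. B-like and myeloid-like cells, 0.138 to 3.36% of called cells, were left out. Cells were called CD4-like on a Cd4 UMI without any of Cd8a or Cd8b1, and CD8-like on either of the latter without Cd4. They numbered 1421 and 3472 in total replicate 1 and 541 and 1065 in replicate 2. T cell markers summed to between 2049.9 and 3418 CPM in all 7 libraries, where CPM is the UMIs of a gene per 1000000 UMIs of the class. Zbtb7b stood at 27.2 and 31.4 CPM in the wild type and Thpok-sufficient GP66+ cells of day 7 and at 20.6 CPM in the Thpok-sufficient cells of day 30, and 1 UMI was found in each Thpok-deleted library. Pairs of libraries shared 133 cell barcodes in all, and 132.9 were expected from their numbers of cells. Single pairs lay above and below. The most, 15 against 6.20 expected, were shared by total replicate 2 and the Thpok-sufficient library of day 7. Total replicate 2 and the wild type GP66+ library shared 3 against 6.42 expected.

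The 7 receptor genes formed 1 cluster on chromosome 1, at chr1:171559193-171953170 of GRCm38, spanning 394 kb. From its start the order was Cd244, Ly9, Slamf7, Cd48, Slamf1, Cd84 and Slamf6. Ly9, on the minus strand, lay within Cd244, on the plus strand. Whether the counting used strand is not stated, so reads of Ly9 and Cd244 may not be fully apart. Slamf7 overlapped the microRNA gene Mir7683 and Cd48 the gene model Gm37010, each on its own strand. Sh2d1a lay on chromosome X at chrX:42502453-42529330, overlapping Tenm1 on the other strand, and Sh2d2a on chromosome 3 at chr3:87846755-87855722.

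The promoter windows of the 3 receptors whose levels parted most clearly in the comparisons that follow are shown to give their sequence context: Slamf6, which moved in the opposite direction to Slamf7 and Cd48. Each runs from 250 bases before to 50 bases after the RefSeq start (GRCm38.p6) on the gene's own strand. Motifs of 3 factor families were searched on both strands: the Runt site (TGTGGT or TGCGGT), the AP-1 site (TGANTCA) and the T-box core (AGGTGT). Capitals mark a match, on either strand, and no matched letters were shared between motifs in these windows.
Slamf6, chr1:171917212-171917511, plus strand: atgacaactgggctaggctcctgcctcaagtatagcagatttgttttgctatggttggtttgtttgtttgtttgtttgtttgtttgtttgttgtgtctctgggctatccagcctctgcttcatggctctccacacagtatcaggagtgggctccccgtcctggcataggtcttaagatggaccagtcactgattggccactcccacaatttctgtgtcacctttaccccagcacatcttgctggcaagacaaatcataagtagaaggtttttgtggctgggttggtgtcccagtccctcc
Slamf7, chr1:171648950-171649249, minus strand: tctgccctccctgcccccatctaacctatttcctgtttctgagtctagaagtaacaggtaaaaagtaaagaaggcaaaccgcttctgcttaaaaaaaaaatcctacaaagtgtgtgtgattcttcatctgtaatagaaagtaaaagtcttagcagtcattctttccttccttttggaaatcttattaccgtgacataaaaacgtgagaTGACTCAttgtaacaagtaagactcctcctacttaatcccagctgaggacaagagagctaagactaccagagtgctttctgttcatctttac
Cd48, chr1:171681742-171682041, plus strand: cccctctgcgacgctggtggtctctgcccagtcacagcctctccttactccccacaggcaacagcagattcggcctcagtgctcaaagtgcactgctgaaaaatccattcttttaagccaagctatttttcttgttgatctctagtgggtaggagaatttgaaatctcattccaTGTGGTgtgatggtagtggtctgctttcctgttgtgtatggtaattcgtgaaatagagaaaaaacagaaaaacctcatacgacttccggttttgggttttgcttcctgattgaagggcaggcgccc
The Slamf6 window held none of the 3 motifs, that of Slamf7 held 1 AP-1 match and that of Cd48 held 1 Runt match. The windows not shown were searched too. That of Cd84, higher in CD4-like cells as Slamf6 was, held 1 match of each motif. That of Slamf1 held 1 T-box match and that of Cd244 held 1 AP-1 match. Among all 32851 promoter windows of this length, 22.4% held a Runt match, 7.81% an AP-1 match and 13.7% a T-box match, so such matches are common. A match describes these letters alone. Of the 9 genes, 6 had a window in the RefSeq table, and Ly9, Sh2d1a and Sh2d2a did not.

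In activated cells of day 7, the receptors divided between the lineages. Slamf6, Cd84 and Slamf1 were higher in CD4-like cells and Cd48, Slamf7 and Cd244 in CD8-like cells. SAP was slightly higher in CD4-like cells. Slamf6 encodes Ly108, a receptor of progenitor and follicular T cells. It stood at 526 and 501 CPM in the CD4-like cells of total replicates 1 and 2 and at 121 and 106 CPM in the CD8-like cells. The CD4-like values were 4.34 and 4.74 times the CD8-like values of the same library, with no overlap. The log2 fold change, CD8-like over CD4-like, was -2.09 ± 0.07 (SE, n = 2 libraries, adjusted p = 4.72e-14, edgeR quasi-likelihood test with the library as block). Each SE given here was derived from the log2 fold change and the F statistic of that test. The test draws part of the spread from all genes tested. Neither the SE nor the p-value therefore measures the spread of the libraries alone.

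Cd48, the ligand of CD244, showed the reverse. It stood at 290 and 393 CPM in CD4-like and at 744 and 904 CPM in CD8-like cells (a log2 fold change of 1.36 ± 0.06, edgeR adjusted p = 5.46e-12). Slamf7, whose product CRACC marks cytotoxic cells, stood at 25.8 and 32.6 CPM in CD4-like and at 96.3 and 98.1 CPM in CD8-like cells (1.86 ± 0.10, edgeR adjusted p = 1.08e-10). For both genes the 2 CD8-like sums lay above the 2 CD4-like sums. Cd244, encoding the CD48 receptor 2B4, was sparse, with 5 and 1 UMIs in CD4-like cells and 83 and 34 UMIs in CD8-like cells (3.08 ± 0.44, edgeR adjusted p = 2.14e-05).

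Cd84, encoding a self-binding receptor that aids helper contact with B cells, stood at 166 and 159 CPM in CD4-like and 109 and 88.5 CPM in CD8-like cells (-0.63 ± 0.08, edgeR adjusted p = 7.75e-06). Slamf1, the founding SLAM receptor, stood at 32.1 and 42.3 CPM in CD4-like and 22.8 and 19.6 CPM in CD8-like cells (-0.64 ± 0.14, edgeR adjusted p = 0.0015). Sh2d1a stood at 379 and 349 CPM in CD4-like and 287 and 280 CPM in CD8-like cells (-0.28 ± 0.06, edgeR adjusted p = 0.00174). These 3 differences are the smaller ones, and each lost its call without the library block, with edgeR adjusted p of 0.0629, 0.0715 and 0.259. Slamf1 and Sh2d1a also lost it with DESeq2 (adjusted p = 0.0737 and 0.052), and Sh2d1a with thinned cells (0.156). Ly9, the self-binding receptor also called CD229, did not pass (0.12 ± 0.09, edgeR adjusted p = 0.348), nor did Sh2d2a (-0.02 ± 0.08, edgeR adjusted p = 0.842).

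Among the 9 genes CD8-like cells had more of 3 and CD4-like cells more of 4, where 17% and 17.7% of all 10177 genes tested were. The block left 1 residual degree of freedom among samples, and the median absolute log2 fold change was 0.64 over the 9 genes and 0.26 over all genes tested. Summed NK markers stood at 6309.8 and 4002 CPM in the CD8-like cells of replicates 1 and 2. Of the genes on this list, Ncr1 had 3 and 0 UMIs in these CD8-like cells, and Klrb1c, Gzma and Eomes had UMIs in both replicates. Whether NK cells added to these values was not tested.

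**Figure D1:**
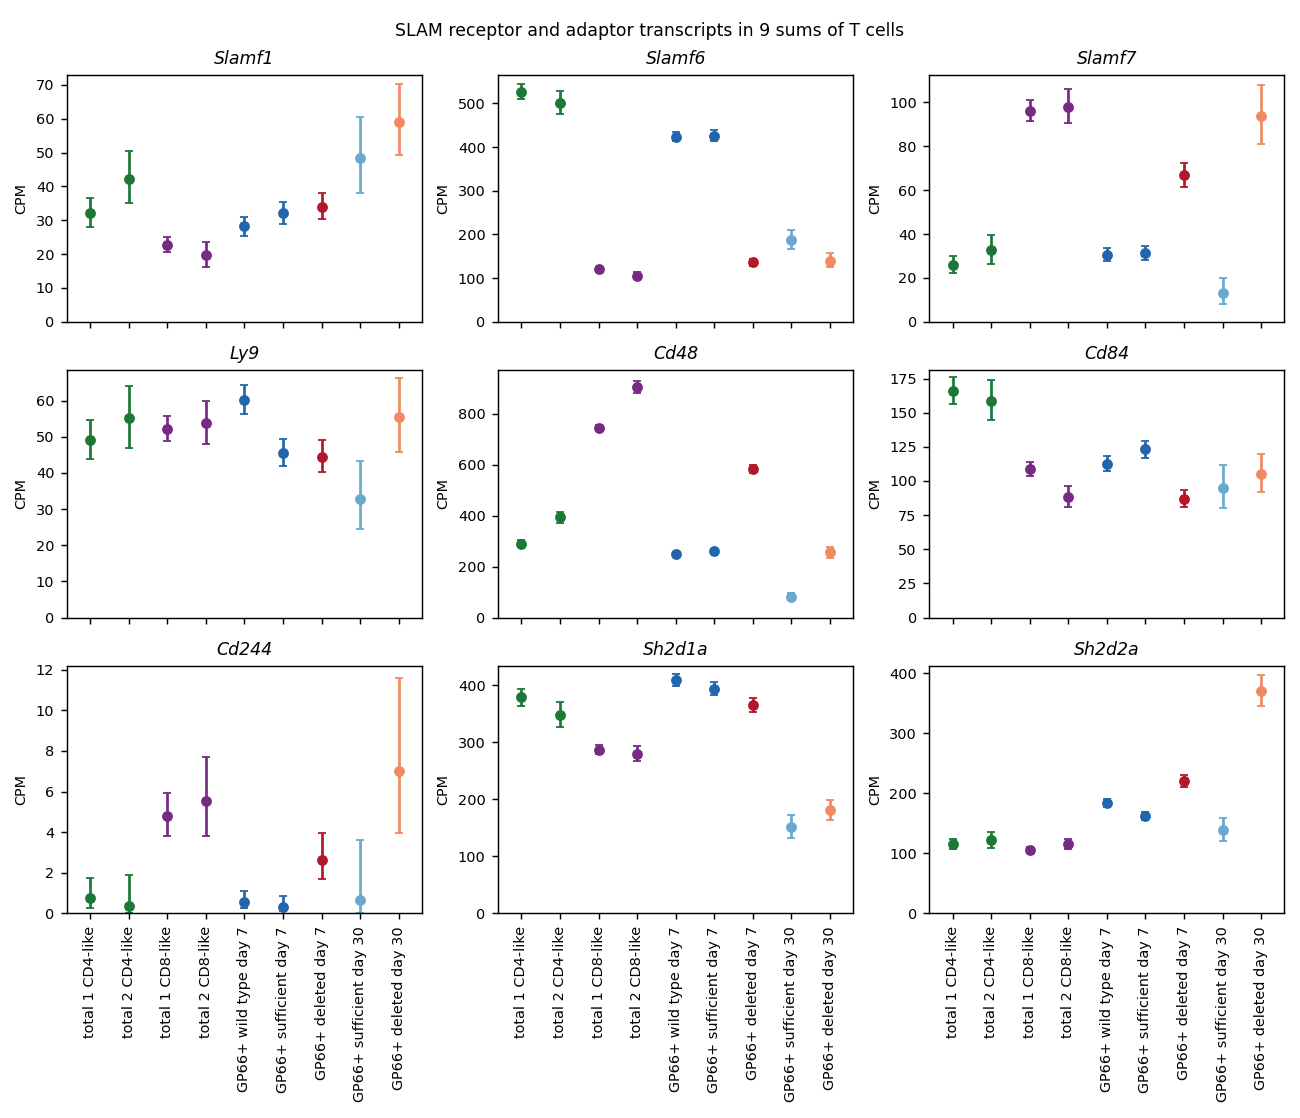
Level of each gene in CPM (vertical axes from 0, a scale of its own in each panel) in 9 sums of T cells: CD4-like and CD8-like cells of total replicates 1 and 2 and all T cells of the 5 GP66+ libraries. Bars are exact 95% Poisson intervals, which cover counting error only. Slamf6 is highest in the total CD4-like sums, at 526 and 501 CPM, and Cd48 in the total CD8-like sums, at 744 and 904 CPM.

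The panels of levels show the order across the 9 sums. For Slamf6 the 2 total CD4-like sums came first, the 2 Thpok-intact GP66+ sums of day 7 followed at 424 and 426 CPM, and the day 30 Thpok-sufficient sum stood at 188 CPM. The Thpok-deleted sums of days 30 and 7, at 140 and 136 CPM, had overlapping intervals and lay next to the total CD8-like sums. For Slamf7 the total CD8-like sums and the Thpok-deleted sum of day 30, at 93.8 CPM, had overlapping intervals at the top.

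Shares of cells with a UMI, after thinning each cell to 1500 UMIs, gave the same division for Slamf6 and a much smaller difference for Sh2d1a. A Slamf6 UMI was found in 47.8 and 45.9% of CD4-like cells (76.5 and 78.0% before thinning) and in 14.8 and 13.3% of CD8-like cells (34.5 and 34.9% before). The lowest shares after thinning among the T cell classes tested in the total libraries were 9.20 and 7.52%, in the Klrg1-only CD8-like cells described further on. An Sh2d1a UMI was found in 35.9 and 39.3% of CD4-like cells and in 33.8 and 33.3% of CD8-like cells (67.4, 73.4, 66.9 and 71.5% before thinning). In the 42 B-like cells of replicate 1, which should lack SAP, the share was 4.76% after and 33.3% before thinning. Their median depth was 7263 UMIs, against 4134 in the CD4-like cells of the same library. Droplets of 1 to 100 UMIs in the total libraries held 277 and 250 CPM of Slamf6, between the levels of the lineages.

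Within CD4 cells the receptors parted by chemokine receptor. Follicular helper (Tfh) cells carry CXCR5 and type 1 helper (Th1) cells of this response carry CXCR6, so cells with a Cxcr5 UMI and no Cxcr6 UMI (Cxcr5-only) were set against cells with a Cxcr6 UMI and no Cxcr5 UMI (Cxcr6-only). Slamf6, Sh2d1a and Cd84 were higher in Cxcr5-only cells and Cd48, Slamf1 and Slamf7 in Cxcr6-only cells. Neither chemokine receptor is among the 9 genes. The comparison used the 4 Thpok-intact libraries of day 7, and took the CD4-like cells of the total libraries. Cells with neither UMI were not in this comparison. In total replicates 1 and 2 and the wild type GP66+ library, Slamf6 stood at 617, 597 and 491 CPM in such cells. Cd84 stood at 194, 173 and 127 CPM in them, and Sh2d1a at 327, 321 and 398 CPM. Against the Cxcr5-only cells of the same libraries, Cd84 was higher, Sh2d1a lower, and Slamf6 lower in replicate 2 alone. High Slamf6 and Cd84 were thus not particular to Cxcr5-only cells.

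Slamf6 stood at 581, 732, 457 and 480 CPM in the Cxcr5-only cells of total replicates 1 and 2 and of the GP66+ libraries, wild type and then Thpok-sufficient. In the Cxcr6-only cells of the same libraries it stood at 230, 175, 203 and 155 CPM. All 4 Cxcr5-only sums lay above all 4 Cxcr6-only sums (1.55 ± 0.11, SE, n = 4 libraries, edgeR adjusted p = 9.81e-09). Sh2d1a, the SAP gene, stood at 503, 403, 472 and 478 CPM in Cxcr5-only cells and 282, 316, 295 and 290 CPM in Cxcr6-only cells, again with no overlap (0.70 ± 0.08, edgeR adjusted p = 2.81e-06).

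Cd84 was higher in Cxcr5-only cells within each of the 4 libraries, but the sums overlapped between libraries. It stood at 145, 169, 116 and 117 CPM in Cxcr5-only and 130, 123, 73.8 and 83.5 CPM in Cxcr6-only cells (0.48 ± 0.10, edgeR adjusted p = 0.000898). The call was lost without the library block (edgeR adjusted p = 0.198) and with cells thinned to 1500 UMIs (0.206).

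Cd48 was the clearest of the genes higher in Cxcr6-only cells. It stood at 169, 192, 165 and 164 CPM in Cxcr5-only and 602, 706, 518 and 530 CPM in Cxcr6-only cells (-1.71 ± 0.07, edgeR adjusted p = 2.01e-11). Slamf7 stood at 11.5, 19.7, 20.4 and 28.3 CPM in Cxcr5-only and 57.6, 64.5, 62.6 and 60.4 CPM in Cxcr6-only cells (-1.52 ± 0.16, edgeR adjusted p = 1.67e-06). The 4 sums of each class were apart for both genes, and for Slamf7 the Cxcr6-only values lay between those of total CD4-like and CD8-like cells. After thinning, a Slamf7 UMI was found in 0.885 and 2.36% of the Cxcr5-only cells of the total libraries (6.18 and 8.59% before), and in 8.33 and 10.0% of their Cxcr6-only cells (21.6 and 32.9% before).

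Slamf1 took the opposite side within CD4 cells to Slamf6, though both were higher in CD4-like than in CD8-like cells. It stood at 19.9, 19.7, 17.4 and 24.95 CPM in Cxcr5-only and 65.5, 71.0, 63.5 and 56.6 CPM in Cxcr6-only cells (-1.57 ± 0.14, edgeR adjusted p = 2.93e-07). Ly9 just missed the threshold (0.32 ± 0.12, edgeR adjusted p = 0.0502) and passed it under 6 alternatives. Sh2d2a did not pass (-0.17 ± 0.10, edgeR adjusted p = 0.231). Cd244, with 3 UMIs in all Cxcr5-only and 8 in all Cxcr6-only cells of these libraries, was too sparse to be tested.

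Of the 9 genes, 3 were higher in Cxcr5-only cells and 3 in Cxcr6-only cells, where 14.2% and 16.1% of 8437 genes tested were. The median absolute log2 fold change over the 8 tested was 1.11, against 0.26 over all genes. Tfh markers summed to between 742 and 1185 CPM in Cxcr5-only and between 177 and 258 CPM in Cxcr6-only cells. The list includes Cxcr5, which set the class. NK markers moved with the division, at 52.3, 45.1, 14.4 and 7.00 CPM in Cxcr5-only and 222, 84.1, 68.0 and 66.7 CPM in Cxcr6-only cells. Of these markers, Ncr1 had 0 UMIs in both classes of all 4 libraries, while others had UMIs in each. Ncr1 alone therefore does not show that NK cells were absent. Hemoglobin genes summed to 760.1 CPM in Cxcr5-only and 15.1 CPM in Cxcr6-only cells of total replicate 1, and to 13.1 CPM or less in the other 3 libraries. Their part in the result was not tested.

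**Figure D2:**
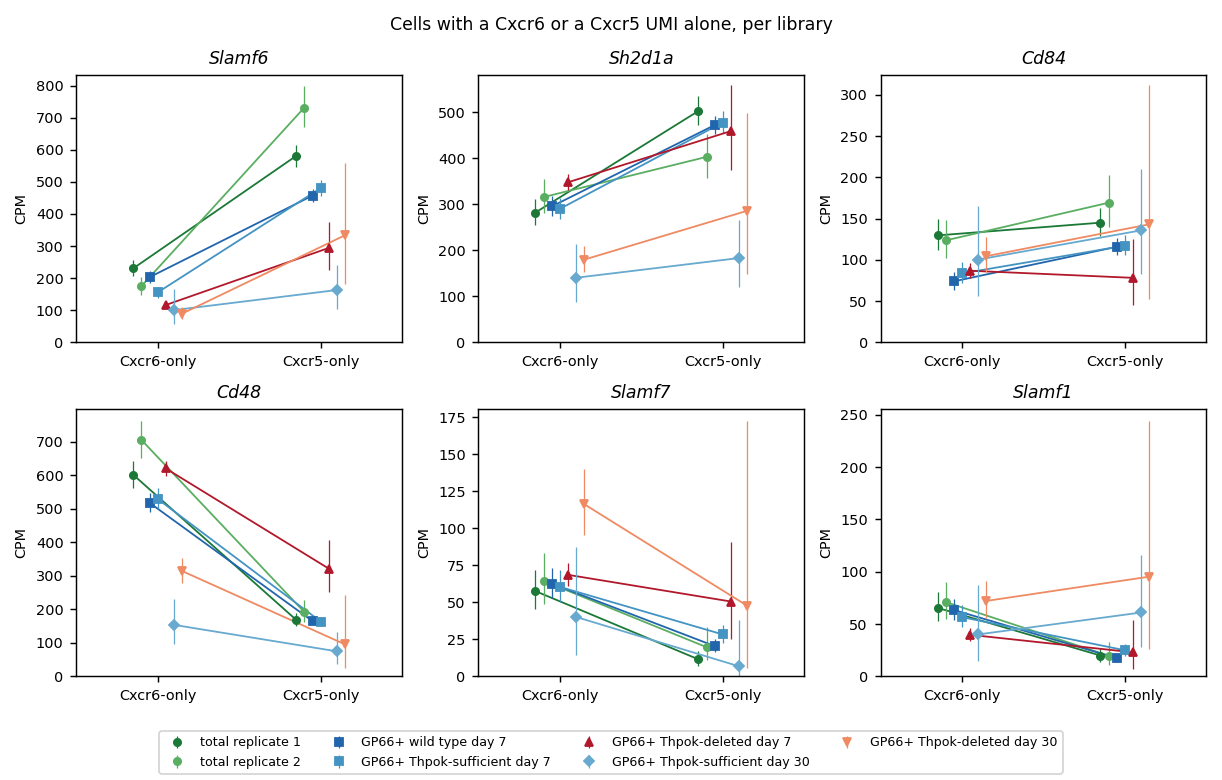
Level in CPM (vertical axes from 0) of 6 genes in Cxcr6-only and Cxcr5-only cells of each of the 7 libraries, joined by library, with exact 95% Poisson intervals for counting error. In the 4 Thpok-intact libraries of day 7 the lines of Slamf6 and Sh2d1a rise towards Cxcr5-only cells and those of Cd48, Slamf7 and Slamf1 fall, and the day 30 libraries have wide intervals.

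The paired plot of the chemokine receptor classes also holds the 3 libraries left out of the test. In the Thpok-deleted library of day 7 Slamf6 stood at 294 CPM in 32 Cxcr5-only cells and 116 CPM in 678 Cxcr6-only cells, a ratio of 2.53 (95% interval 1.92 to 3.28, counting error only). In the Thpok-sufficient library of day 30 it stood at 163 and 100 CPM in 63 and 64 cells, a ratio of 1.62 whose interval, 0.818 to 3.33, holds no difference. Slamf1, higher in Cxcr6-only cells at day 7, stood at 61.1 CPM in Cxcr5-only and 40.1 CPM in Cxcr6-only cells of that library, from 9 and 6 UMIs.

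CD8-like cells were divided in the same way by Klrg1, carried by terminal effectors, and Il7r, carried by memory precursors. Cd48, Slamf7 and Slamf1 were higher in cells with a Klrg1 UMI and no Il7r UMI (Klrg1-only), and Slamf6 was higher in cells with the reverse (Il7r-only). Slamf6 stood at 72.8 and 54.4 CPM in the Klrg1-only cells of total replicates 1 and 2 and at 207 and 189 CPM in the Il7r-only cells (-1.76 ± 0.12, SE, n = 2 libraries, edgeR adjusted p = 4.03e-13). The Il7r-only cells still lay below the undivided CD4-like sums of both total libraries. Against the Cxcr6-only CD4-like cells, at 230 and 175 CPM, they lay below in replicate 1 and above in replicate 2.

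Cd48 stood at 871 and 1011 CPM in Klrg1-only and 338 and 559 CPM in Il7r-only cells (0.99 ± 0.10, edgeR adjusted p = 2.04e-09). Slamf7 stood at 122 and 123 CPM in Klrg1-only and 37.8 and 54.8 CPM in Il7r-only cells (1.37 ± 0.16, edgeR adjusted p = 2.76e-08). Neither gene's sums overlapped between the classes. Slamf1 rested on few UMIs, 199 and 53 in Klrg1-only and 24 and 3 in Il7r-only cells (0.79 ± 0.28, edgeR adjusted p = 0.0376), and was not called with DESeq2, with at least 1000 genes per cell, with thinned cells or without the block, at adjusted p between 0.0727 and 0.594.

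The remaining 5 genes did not pass: Cd244 (1.05 ± 0.58, edgeR adjusted p = 0.193), Sh2d2a (0.35 ± 0.14, 0.0536), Sh2d1a (0.10 ± 0.10, 0.518), Cd84 (-0.18 ± 0.13, 0.345) and Ly9 (-0.30 ± 0.17, 0.186). So 3 of 9 were higher in Klrg1-only and 1 in Il7r-only cells, against 13.2% and 14.1% of 8788 genes tested. Scaling by TMM shifted every log2 fold change of this comparison by -0.15 from scaling by library totals, less than each called value. Summed NK markers moved with the division, at 9262 and 6219 CPM in Klrg1-only and 1097 and 748 CPM in Il7r-only cells, and their part in the result was not tested.

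**Figure D3:**
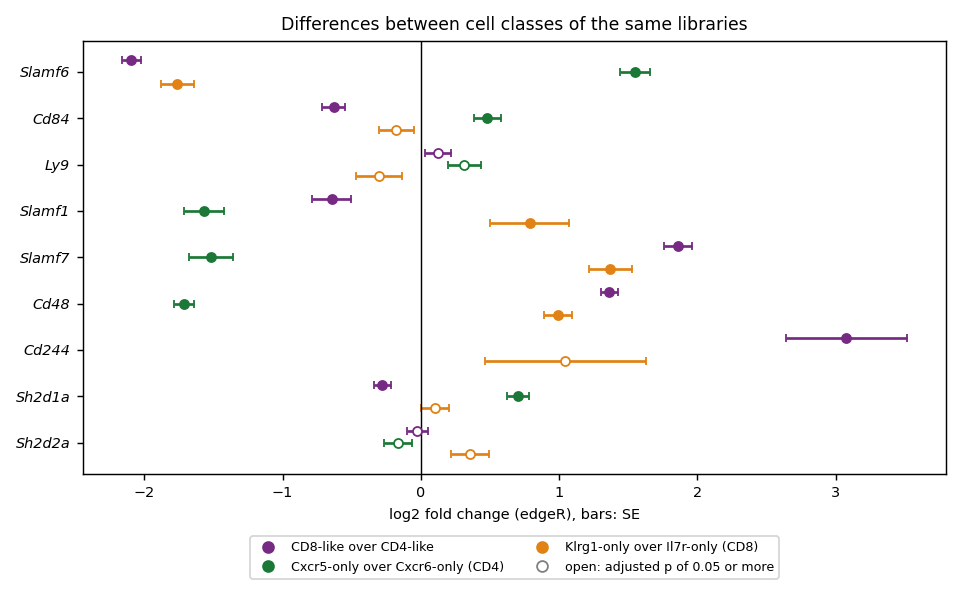
Log2 fold change with its SE (horizontal axis) of the 9 genes in 3 comparisons between cell classes of the same libraries, by edgeR. Filled points passed an adjusted p of 0.05 and open points did not. Slamf6 lies at -2.09 for CD8-like over CD4-like, 1.55 for Cxcr5-only over Cxcr6-only and -1.76 for Klrg1-only over Il7r-only cells, and Cd48 and Slamf7 lie on the other side in each.

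The forest plot of class differences sets these comparisons side by side. The CD8-like cells of the total libraries enter both the lineage and the Klrg1 comparison, and their CD4-like cells both the lineage and the Cxcr5 comparison, so they are not independent. Slamf1 is the gene whose side changed: lower in CD8-like cells, yet higher in Cxcr6-only and in Klrg1-only cells.

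**Figure D4:**
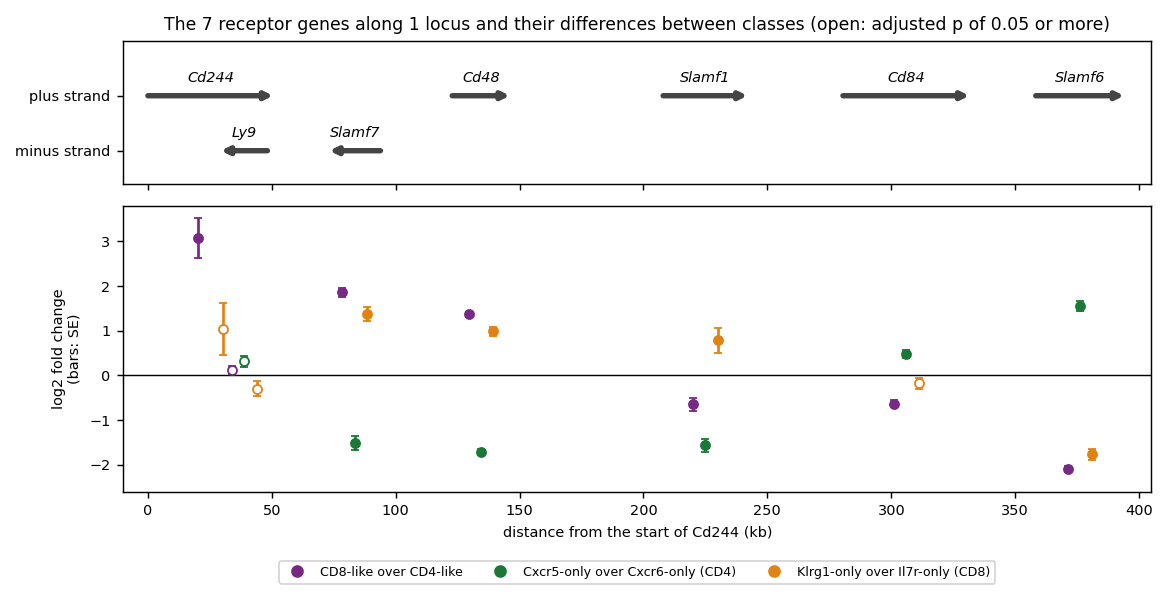
Top, position, length and direction of the 7 receptor genes, as distance in kb from the start of Cd244. Bottom, log2 fold change with its SE of each gene in the same 3 comparisons, with points shifted sideways for legibility. Cd244, Slamf7 and Cd48, in the first part of the cluster, were higher in CD8-like cells, and Slamf1, Cd84 and Slamf6, in the last part, were lower.

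The map of the locus shows that the lineage differences followed gene order, apart from Ly9, which did not pass. In the Cxcr5 comparison Slamf7, Cd48 and Slamf1, which lie next to each other, were higher in Cxcr6-only cells, and Cd84 and Slamf6, which follow, in Cxcr5-only cells. With 7 genes, no test of this order was made.

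Next, GP66+ cells were compared with CD4-like cells of mixed specificity at day 7. None of the 8 genes tested passed. In CD4-like cells Sh2d2a stood at 116 and 122 CPM in total replicates 1 and 2 and at 180 and 158 CPM in the GP66+ libraries, wild type and then Thpok-sufficient. The GP66+ values were higher with no overlap, but the gene did not pass (0.58 ± 0.11, SE, edgeR adjusted p = 0.151). It did with no filter on low counts (edgeR adjusted p = 0.0129) and without the Thpok-sufficient library (0.0429). Slamf6, at 429 and 437 CPM in the GP66+ libraries, did not pass (-0.18 ± 0.14, edgeR adjusted p = 0.618).

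The other log2 fold changes, GP66+ over total, ran from -0.39 for Cd84 to 0.24 for Sh2d1a, with edgeR adjusted p of 0.38 or more. Cd244 was left out by the filter. Over all 10243 genes tested 0.449% were higher in GP66+ cells and 0% higher in total CD4-like cells. At an unadjusted p under 0.05 edgeR gave 698 and 612 genes, and DESeq2 called 177 in all, with 0 of the 8 among them.

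Deletion of Thpok went with more Cd48 in GP66+ cells, the only member past the threshold. Cd48 stood at 249 CPM in the wild type, 261 CPM in the Thpok-sufficient and 583 CPM in the Thpok-deleted library of day 7. At day 30 it stood at 81.3 CPM in Thpok-sufficient and 257 CPM in Thpok-deleted cells. Within each day the deleted library was higher, although the deleted cells of day 30 lay at the level of the intact cells of day 7. With day as a covariate the log2 fold change was 1.30 ± 0.14 (SE, n = 2 against 3 libraries, edgeR adjusted p = 0.0405).

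The call depended on most of the libraries. It was lost when the Thpok-sufficient day 7, Thpok-deleted day 7, Thpok-sufficient day 30 or Thpok-deleted day 30 library was left out, at adjusted p of 0.0871, 0.441, 0.133 and 0.129. The log2 fold change stayed between 1.20 and 1.44 in these fits. Of the 9 genes, then, 1 was higher in Thpok-deleted cells and 0 were lower, where 0.64% and 0.306% of 10785 genes tested were.

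Slamf7, Slamf6 and Cd244 did not pass. Slamf7 stood at 30.4 and 31.2 CPM in the wild type and Thpok-sufficient libraries and 66.8 CPM in the deleted library of day 7, and at 12.9 against 93.8 CPM at day 30 (1.65 ± 0.35, edgeR adjusted p = 0.105). Both deleted libraries lay above all 3 intact ones. Slamf6 stood at 424 and 426 against 136 CPM at day 7 and at 188 against 140 CPM at day 30 (-1.21 ± 0.26, edgeR adjusted p = 0.112), with both deleted libraries below all intact ones. Cd244 had 8, 4 and 1 UMIs in the intact libraries and 23 and 15 in the deleted ones (2.66 ± 0.48, edgeR adjusted p = 0.0832). DESeq2, and edgeR without the wild type library or with no filter on low counts, called all 3. For Slamf6 and Slamf7 the gap between genotypes differed between the days, and the fit counts such a difference as spread. Their log2 fold changes over both days therefore describe neither day alone.

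Sh2d2a stood at 184 and 162 against 221 CPM at day 7 and at 139 against 370 CPM at day 30, and did not pass (0.72 ± 0.22, edgeR adjusted p = 0.192). Sh2d1a, at 409 and 395 against 365 CPM at day 7 and 152 against 181 CPM at day 30, did not pass either (-0.06 ± 0.12, edgeR adjusted p = 0.87). The remaining log2 fold changes were -0.28 for Cd84, 0.14 for Slamf1 and 0.06 for Ly9, with edgeR adjusted p from 0.449 to 0.934.

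The mix of helper classes moved with genotype. At day 7, Cxcr5-only and Cxcr6-only cells numbered 664 and 348 of 2199 in the wild type and 517 and 309 of 2116 in the Thpok-sufficient library, but 32 and 678 of 1307 in the Thpok-deleted one. At day 30 they numbered 63 and 64 of 724 in Thpok-sufficient and 13 and 310 of 733 in Thpok-deleted cells. Within Cxcr6-only cells Cd48 stood at 518, 530 and 621 CPM in the wild type, Thpok-sufficient and Thpok-deleted libraries of day 7 and at 154 and 314 CPM at day 30. The log2 fold change there was 0.54 (edgeR adjusted p = 0.788), against 1.30 over all T cells.

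Slamf7 in Cxcr6-only cells stood at 62.6, 60.4 and 68.6 CPM at day 7 and at 40.1, from 6 UMIs, and 116 CPM at day 30. The day 7 ratio of deleted to Thpok-sufficient cells was 1.13 (95% interval 0.921 to 1.41, counting error only), against 2.14 (1.88 to 2.44) over all T cells. Slamf6 in Cxcr6-only cells stood at 203, 155 and 116 CPM at day 7 and at 100 and 89.4 CPM at day 30. In this class 0 of the 9 genes passed. The Thpok-sufficient sum of day 30 in that fit held 64 cells, so the count does not show that no gene differed.

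Cells with neither chemokine receptor UMI kept a wide gap at day 7. Slamf6 stood there at 491, 483 and 147 CPM in the wild type, Thpok-sufficient and Thpok-deleted libraries, and Cd48 at 208, 222 and 556 CPM. A missing UMI does not show that the receptor is absent. Fewer cells of a type and less RNA per cell cannot be told apart in these summed values.

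**Figure D5:**
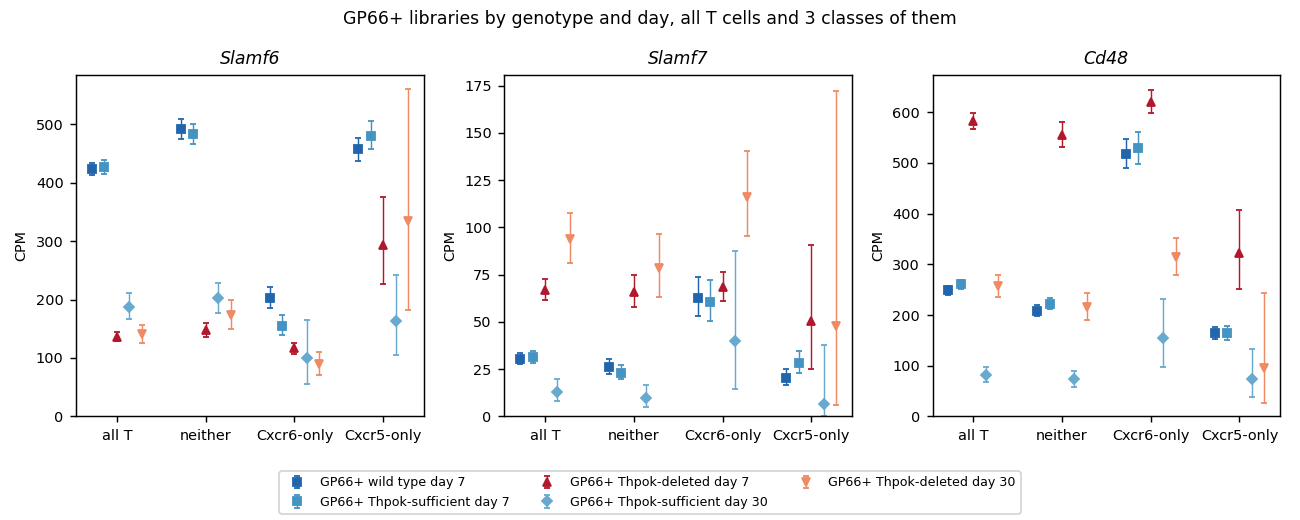
Level in CPM (vertical axes from 0) of Slamf6, Slamf7 and Cd48 in the 5 GP66+ libraries, for all T cells and for cells with neither UMI, with a Cxcr6 UMI alone and with a Cxcr5 UMI alone. Bars are exact 95% Poisson intervals for counting error. At day 7 the Thpok-deleted library stands apart in all T cells and in cells with neither UMI, and in Cxcr6-only cells Slamf7 lies at 62.6, 60.4 and 68.6 CPM.

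The plot of genotypes by class can be read beside the other markers that moved with deletion. Over all T cells the Th1 list summed to between 1633 and 2505 CPM in the intact libraries. In the deleted libraries of days 7 and 30 it summed to 14246 and 23424 CPM. That list is not particular to Th1 cells, as it summed to 33474 and 21925 CPM in the CD8-like cells of total replicates 1 and 2. The Tfh list summed to 501 CPM in the wild type, 483 CPM in the Thpok-sufficient and 85.5 CPM in the deleted library of day 7. At day 30 it summed to 300 CPM in Thpok-sufficient and 309 CPM in Thpok-deleted cells. The NK list summed to between 7.74 and 21.2 CPM in the intact and to 643 and 1121 CPM in the deleted libraries. Of its genes, Ncr1 had 0 UMIs in all 5, and Klrb1c, Gzma and Eomes had UMIs in each. Ncr1 alone therefore does not show that NK cells were absent. The CD8 list summed to between 7.74 and 15.9 CPM in the intact and to 118 and 54.9 CPM in the deleted libraries. Hemoglobin genes summed to 5510.4 CPM in the deleted library of day 30 and to 4.79 CPM or less in the other 4. The part of these in the genotype values was not tested.

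CD4-like cells alone gave similar levels at day 7. This gate rests on coreceptor UMIs, which moved with genotype themselves. The CD4 list summed to 402, 370 and 129 CPM in the wild type, Thpok-sufficient and Thpok-deleted libraries of day 7. The gate kept 1489 of 2199, 1310 of 2116 and 402 of 1307 cells of these libraries, so it may take different parts of each. At day 30 Slamf6 stood at 167 CPM in the CD4-like cells of the Thpok-sufficient and 173 CPM in those of the Thpok-deleted library, a ratio of 1.04 (95% interval 0.770 to 1.40, counting error only) that does not show the lower level seen over all T cells. In the deleted library of day 7 Cd48 stood at 574 CPM in 402 CD4-like and 604 CPM in 239 CD8-like cells, and Slamf6 at 138 and 134 CPM. In that of day 30 Cd48 stood at 254 and 281 CPM in 176 CD4-like and 54 CD8-like cells, and Slamf6 at 173 and 85.9 CPM, from 104 and 15 UMIs. The Slamf6 ratio of CD4-like to CD8-like cells was 1.04 (95% interval 0.875 to 1.23) at day 7 and 2.01 (1.17 to 3.72) at day 30, counting error only. With 1 deleted library per day these ratios were not tested against those of the total libraries.

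Between day 7 and day 30, Cd48 and Sh2d1a fell and Slamf1 rose in GP66+ cells. Sh2d1a stood at 409, 395 and 365 CPM in the wild type, Thpok-sufficient and Thpok-deleted libraries of day 7 and at 152 and 181 CPM in the Thpok-sufficient and Thpok-deleted libraries of day 30. All day 30 values lay below all day 7 values (-1.05 ± 0.13, SE, edgeR adjusted p = 0.0129). Slamf1 stood at 28.1, 32.1 and 34.0 CPM at day 7 and at 48.4 and 59.1 CPM at day 30, all above day 7 (0.91 ± 0.17, edgeR adjusted p = 0.026). The Cd48 values given above correspond to a log2 fold change of -1.26 ± 0.15 (edgeR adjusted p = 0.0122).

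So 1 of the 9 genes was higher at day 30 and 2 at day 7, where 9.87% and 11.9% of 10785 genes tested were, and the share of members is near that background. All 3 calls were lost without the Thpok-deleted day 7 library, without either day 30 library and in Thpok-intact libraries alone, with edgeR adjusted p from 0.0715 to 0.186. That of Slamf1 was also lost without the Thpok-sufficient day 7 library (0.0565), with at least 1000 genes per cell (0.112) and in Cxcr6-only cells (0.402). The day 30 libraries had medians of 2017 and 2440 UMIs per called cell, against 5287 or more at day 7. With each cell thinned to 1500 UMIs the 3 genes were still called. TMM shifted the day log2 fold changes by 0.17 from scaling by library totals.

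The other 6 did not pass, with log2 fold changes of 1.32 for Cd244, 0.34 for Sh2d2a, 0.13 for Cd84, -0.03 for Ly9, -0.14 for Slamf7 and -0.46 for Slamf6 (edgeR adjusted p from 0.138 to 0.934). Slamf6 stood at 426 and 188 CPM in the Thpok-sufficient libraries of days 7 and 30 and at 136 and 140 CPM in the deleted ones. Whether the deletion difference itself changed with day was tested as an interaction, and 0 of the 9 genes passed, against 0% of 11309 genes in each direction. The largest interaction terms were 1.53 ± 0.31 for Slamf7 and 1.01 ± 0.23 for Slamf6 (edgeR adjusted p = 0.695 for both). At an unadjusted p under 0.05 edgeR gave 596 and 163 genes, and DESeq2 called 6.

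Among 22 other genes of SLAM signalling, 18 could be tested, and Sh2d1b1, Sh2d1b2, Slamf8 and Slamf9 were too low. In the lineage comparison 4 were higher in CD8-like cells, namely Pik3r1 (0.46), Cd2 (0.39), Nck1 (0.32) and Dok2 (0.22), and 7 were higher in CD4-like cells. The latter were led by Ptpn11 (-1.11), encoding the phosphatase SHP-2, Rasa1 (-0.71), Nfkb1 (-0.60) and Arhgef7 (-0.56). The background shares were those given above, 17% and 17.7%. The median over the list was -0.04, against -0.02 over all genes.

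In the Cxcr5 comparison 9 of the 18 were higher in Cxcr5-only cells and 3 in Cxcr6-only cells, where 14.2% and 16.1% of all genes tested were. Fyn, the SAP-bound kinase, was highest in log2 fold change (0.61 ± 0.08, edgeR adjusted p = 1.16e-05), followed by Plcg1 (0.52), Ptpn11 (0.51) and Ptpn6 (0.45), which encodes the phosphatase SHP-1. Pik3r1 (-0.82), Dok2 (-0.76) and Cd2 (-0.41), whose product binds CD48, were higher in Cxcr6-only cells. The list's median was 0.25, against 0.01 over all genes. Dok2 (0.60) alone passed between Klrg1-only and Il7r-only cells, and Inpp5d (1.06), encoding the phosphatase SHIP-1, alone between days. A count of 1 in 18 lies below the background share of each of these comparisons. None passed for specificity, genotype or their change with day.

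Genes with the most similar pattern were ranked by Pearson r of log2(CPM + 10) over the same 9 sums, among 5002 genes. These sums share libraries in part, and r is given as a description. Slamf6 was most like 2310001H17Rik (0.99), Ncoa7 (0.98) and Shisa5 (0.97). Slamf7 was most like Baiap3 (0.98), Insl6 (0.97) and Ctsw (0.96), and Cd48 was most like Tmem109, Anxa6 and Ctsc (0.99 each). Sh2d1a was most like Naa10 (0.99), Mpc1 (0.98) and Dck (0.98).

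Among the 9 genes themselves, Slamf7 went with Cd244 (0.90) and Cd48 (0.80), and Slamf6 with Cd84 (0.84). Slamf6 went against Cd244 (-0.83) and Slamf7 (-0.71). Cd244 averaged 2.51 CPM over these sums, below the 10 CPM added before the log, so its r values rest on few UMIs. Slamf1 was most like Rcc2 (0.98), Kansl1 (0.95) and Fam172a (0.94), Cd84 was most like Cln3 (0.97), Ly9 was most like Rnmt (0.96), and Sh2d2a was most like Rgs1 (0.95).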

How the data were processed

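The libraries were made with the 10x 3' kit of version 2, per the labels' protocols. The authors used bcl2fastq 2.17 and Cell Ranger with build mm10, per the submitters' processing notes, without a stated Cell Ranger version or annotation. The deposited values are raw UMI counts for each gene and barcode, empty droplets included, and total replicate 1 joins 3 wells.

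Barcodes counted as cells if they had 10% or more of the UMIs at the 99th percentile of the 3000 largest barcodes in a well, 500 or more genes and no more than 10% mitochondrial UMIs. Cells with UMIs of 2 or more B or myeloid markers were left out. No doublet caller was run, so doublets remain. Summed UMI counts of each class in each library were tested in edgeR 4.0.16 under R 4.3.3 (quasi-likelihood test, TMM, filterByExpr), with Benjamini-Hochberg adjustment over all genes at 0.05. The lineage, Klrg1 and interaction fits had 1 residual degree of freedom, those of specificity, genotype and day 2, and the Cxcr5 fit 3. DESeq2 1.42.0 was an alternative. The fits were also run on simulated counts with planted changes and no differences between libraries beyond depth and random spread. Such a run checks the code and cannot show how the fits hold in real libraries. Poisson and binomial intervals are exact, at 95%, and cover counting error only.

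All 9 members are named in every comparison, with up to 4 genes per direction of the pathway list and genes among the 3 most alike each member, ranked over genes of at least 20 CPM. Members, lists and tests were chosen with earlier results of these data known. Gene coordinates are from GENCODE vM21 on GRCm38.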

Additional observations from a re-analysis of the deposited data

How the results depend on the processing

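The Cxcr5, Klrg1 and interaction counts of members called stayed within 1.5-fold under every alternative run, and no Cxcr5 or Klrg1 log2 fold change reversed. Between libraries, no paired analysis was possible because each GP66+ group holds 1 library and its label carries no replicate number. Classes of the same capture were compared with the library as block. With no library block 4 members were called for lineage in place of 7. For specificity (0), no filter on low counts gave 1, and leaving out a library gave 0 to 1. For genotype (1), DESeq2 gave 4, no filter 5, day 7 alone 0, Cxcr6-only cells alone 0 (chosen after seeing the data), and leaving out a library 0 to 5. For day (3), Thpok-intact libraries alone gave 0 and leaving out a library 0 to 3. These counts are given without the share of all genes called under each setting. A change in them can therefore not be read as particular to the members. The causes were not tested.

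Log2 fold changes that reversed were not called in the main or the reversed fit. With at least 1000 genes per cell these were Ly9 (-0.0980) and Sh2d1a (0.0902) for genotype, Ly9 (0.165) for day, and Slamf1 (0.330) and Cd48 (-0.0268) for the interaction. With thinned cells they were Sh2d2a (0.0981) for lineage, Slamf7 (0.000229), Ly9 (0.0482) and Cd84 (-0.0572) for day, and Slamf1 (0.241), Cd244 (-0.136) and Sh2d1a (-0.0685) for the interaction. No filter reversed Sh2d2a for lineage (0.000542), and day 7 alone reversed Ly9 for genotype (-0.228). Thpok-intact libraries alone reversed Cd84 (-0.0382) and Sh2d2a (-0.0337) for day. In Cxcr6-only cells Slamf1 (-0.216), Cd84 (0.141) and Sh2d1a (0.306) reversed for genotype, and Slamf7 (0.433) and Ly9 (0.468) for day. Leaving out each library in turn gave Ly9 from -0.0402 to 0.168 for specificity, and for genotype Ly9 from -0.229 to 0.537 and Sh2d1a from -0.126 to 0.0391. For day it gave Slamf6 from -0.911 to 0.0540, Slamf7 from -0.987 to 0.498, Ly9 from -0.406 to 0.325, Cd84 from -0.0490 to 0.285 and Sh2d2a from -0.0446 to 0.756.

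Without a total replicate, the lineage and Klrg1 comparisons had no residual degrees of freedom, so log2 ratios alone were computed. Leaving out the cells whose barcodes were shared between libraries, chosen after seeing the data, changed no count by over 1.5-fold. Cells under 1500 UMIs, left out on thinning, numbered 152 and 46 in the Thpok-sufficient and Thpok-deleted libraries of day 30 and 14 or fewer elsewhere. Depth limits Cd244 most, and the day 30 chemokine receptor classes, whose intervals are wide.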
